A study of Mus musculus with 6 samples.

Results

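The 10 genes described here, Meg3, Dlk1, Plagl1, Grb10, Ndn, Peg3, Mest, Cdkn1c, Nnat and Sgce, are imprinted genes that have been placed in a coexpressed network around the zinc finger factor Plagl1 and the noncoding RNA Meg3. They were followed through every probe set that the platform annotation assigns to 1 of them and to no other gene. These were 10 of the 18194 genes measured, with 26 probe sets on the MOE430A array and 11 on the MOE430B array, 37 in all. The RNA came from 10T1/2, an established line of mouse embryonic fibroblasts grown in DMEM with 10% fetal bovine serum and harvested at 80% confluency. Samples 1, 4 and 5 each went on 1 array of either design, so there were 6 arrays, 1 group of cells, and no treatment or control. Per the labels, the samples used were those judged best, and the aim was to find what these fibroblasts share with stem cells. Nothing in the labels tells whether the 3 samples came from separate cultures, so a spread between them may be technical, and a line grown in culture may have lost or altered imprints, which expression arrays do not read.

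An imprinted gene is transcribed mainly from the allele of 1 parent, because the alleles carry different DNA methylation at a control region. Meg3 is a maternally expressed long noncoding RNA, and its neighbour Dlk1 a paternally expressed transmembrane protein that restrains fat cell differentiation. Plagl1, Ndn, Peg3, Mest, Nnat and Sgce are also known as paternally expressed genes, Cdkn1c as maternally expressed, and Grb10 is expressed from the maternal copy in most mouse tissues and from the paternal copy in neurons. Many of these genes are high in embryonic mesenchyme and fall after birth, and they are known for roles in fetal growth, the cell cycle and differentiation. The arrays do not separate alleles, so every value below is the sum over both.

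Values are MAS5 signals, a linear intensity for each probe set, given throughout in the order sample 1, sample 4, sample 5. Signals of different probe sets are not compared as abundance, because probe sets bind their targets differently. A probe set that exceeded the background limit on 3 of 3 arrays was called detected, and 1 such probe set sufficed to call its gene detected. The limit was the 95th percentile of probe sets for genes of tissues far from fibroblasts. It stood at 1087, 1046 and 835 on MOE430A and at 3664, 3083 and 2639 on MOE430B, so the second design gives a stricter call. The MOE430B limit rests on only 29 probe sets, against 212 on MOE430A, and is the less certain of the limits. A gene below the limit is not detectable at this limit and is not shown to be silent. With 1 array per sample and design there is no error within a sample, no test was made and no p-value is given, and an SD below is the spread over the 3 samples.

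Most fibroblast markers were present. Of 10 listed 9 were detected, beside 29.6% of all genes, and Thy1 exceeded the limit in 2 samples. None of the 3 endothelial, 2 leukocyte, 3 neuronal and glial, 3 muscle, 3 fat and 3 pluripotency markers was detected. Among these the endothelial Kdr exceeded the limit in 2 samples, and the fat marker Fabp4 in 1 by its brightest probe set. Of 4 epithelial markers, Epcam was detected, by a probe set whose name ending marks possible matches to several transcripts. Krt8 exceeded the limit in 1 sample by its brightest probe set. The samples differed in other ways: the ratio of the 3' to the 5' Gapdh probe set on MOE430A was 24.7 in sample 1, 15.0 in sample 4 and 10.6 in sample 5. On that design samples 1 and 4 were run on fluidics station 1 and sample 5 on station 2, while all MOE430B arrays were run on station 1.

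Over both designs, 4 of the 10 members were detected: Meg3, Grb10, Ndn and Sgce. Among all genes measured 29.6% were detected, so the members' share stood a little above that background, on very few genes. Genes with many probe sets, such as Meg3 with 11 and Ndn with 8, are more readily called. The share was not adjusted for that. On MOE430A the same 4 of 10 were detected, against 33.8% of all genes of that design. On MOE430B, Meg3 was the only detected member of the 5 measured there, against 16% of all genes. Mest and Plagl1 were above the limit in 2 samples each, and Dlk1, Peg3, Cdkn1c and Nnat on no array of either design. Counted as probe sets, 9 of 37 were detected, 6 were above the limit on 1 or 2 arrays and 22 on none. By design, members had 7 of 26 detected on MOE430A and 2 of 11 on MOE430B. Among all probe sets naming 1 gene these counts were 5530 of 20393 and 1711 of 14674. The call is sensitive to how a gene's probe sets are weighed: under a rule that a majority of a gene's probe sets be detected, Sgce alone was left on MOE430A and no member on MOE430B. The share of all genes under that rule was not computed.

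**Figure D1:**
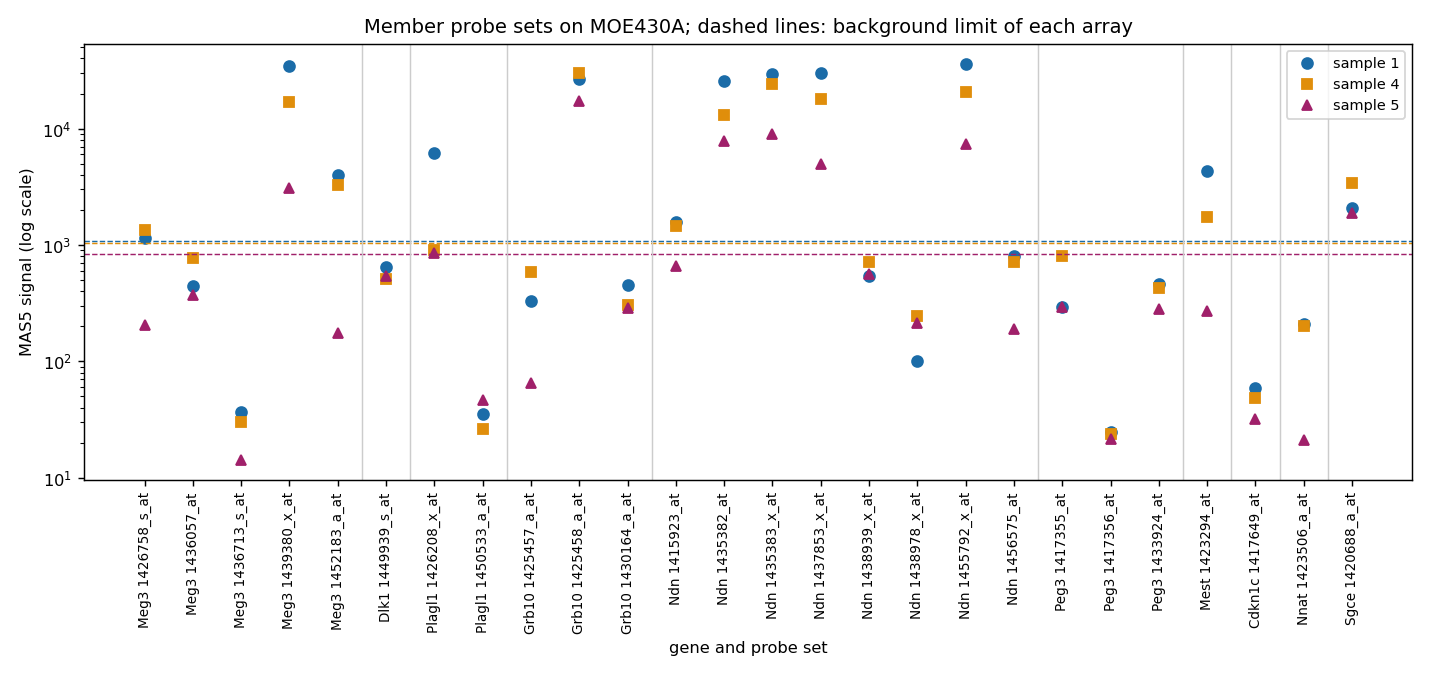
MAS5 signal (log axis) of each of the 26 member probe sets on MOE430A, grouped by gene, in samples 1, 4 and 5; dashed lines mark the background limit of each array. The detected probe sets of Meg3 and Ndn and the probe set of Mest are highest in sample 1 and lowest in sample 5, while Grb10 and Sgce are highest in sample 4.

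Meg3 varied most among the detected members. On MOE430A its detected probe set, 1439380_x_at, gave signals of 34712.3, 16759.6 and 3058.3. All 3 values were above the limit, with a mean of 18176.7 ± 15874.5 (SD, n = 3), and sample 5 was 7.89-fold below the geometric mean of the other samples. The name ending of this probe set marks possible matches to several transcripts. Without probe sets of such endings Meg3 was not detected on MOE430A. On MOE430B the probe set 1452905_at read 60630.8, 42645 and 5010.7, a mean of 36095.5 ± 28382.6 (SD, n = 3), and sample 5 was 10.1-fold below the others. The order of the samples was thus the same on both designs, in separate hybridisations of each sample, and the highest sample exceeded the lowest by 11.4-fold on MOE430A and 12.1-fold on MOE430B.

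Not all Meg3 probe sets followed that order. The probe set 1429256_at on MOE430B was also detected, at 4916.5, 3906.7 and 4012.4, and its samples differed little, with sample 5 at 1.09-fold below the others. Its partner 1429257_at, designed from the same source sequence, read 2242.5, 4510.4 and 3716.4, with sample 1 lowest and below the limit. On MOE430A 1452183_a_at read 4029.8, 3305.6 and 176, so sample 5 lay below the limit and at least 4.37-fold under the others when raised to it. The probe set 1426758_s_at, which shares its source sequence with the last, read 1152.7, 1351.8 and 204, at least 1.5-fold lower in sample 5. Of the 11 Meg3 probe sets 3 were detected, 3 were above the limit in 2 samples, and 5, among them 1428764_at and 1428765_at from the source sequence of 1452905_at, on no array. Meg3 has many spliced forms, and the tables used here do not say which of them each probe set binds.

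**Figure D2:**
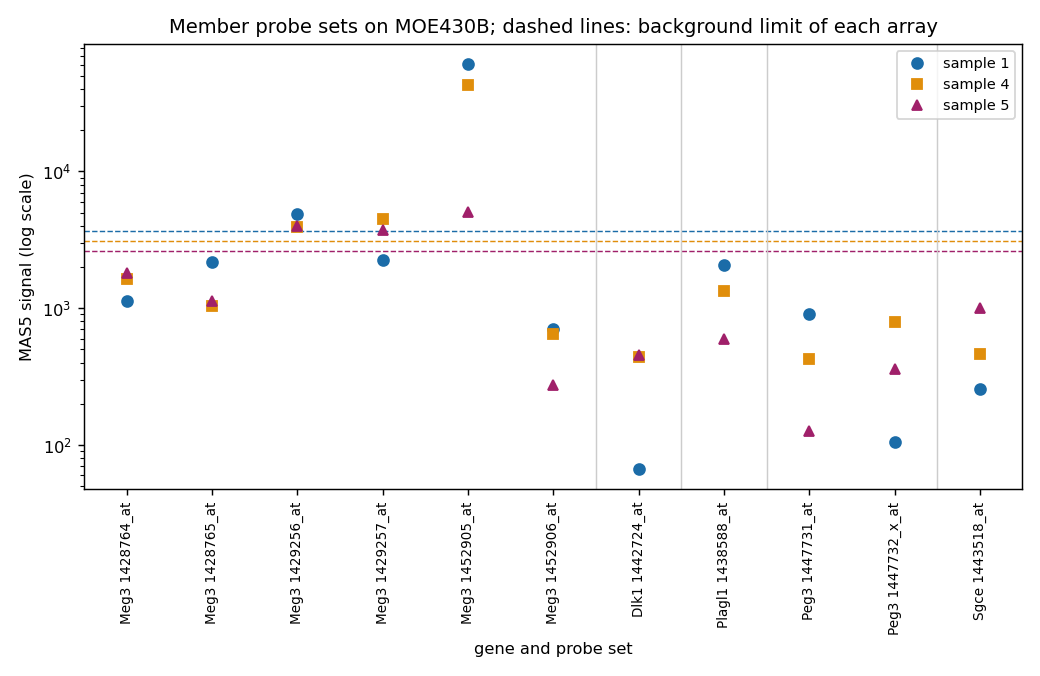
MAS5 signal (log axis) of the 11 member probe sets on MOE430B in samples 1, 4 and 5, with the background limit of each array as a dashed line. Only the Meg3 probe sets 1452905_at and 1429256_at are above the limit in all 3 samples, and only the first is far lower in sample 5.

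No other gene of the Meg3 locus was detected. Dlk1 read 650, 509 and 539 on MOE430A and 67.4, 440 and 453 on MOE430B, below the limit everywhere. Rian, a noncoding RNA downstream of Meg3 that hosts small nucleolar RNAs, exceeded the limit on MOE430A in sample 4 only, with 718, 1151.9 and 663. Mirg, a noncoding host of microRNAs farther downstream, gave 3977.4, 3136.9 and 514 on MOE430B, over the limit except in sample 5 and lowest in sample 5, as in the steep Meg3 probe sets. In all, 3 of the 19 probe sets of these 4 genes were detected, each of them for Meg3.

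Ndn encodes necdin, a MAGE family protein that binds E2F factors and restrains proliferation of neural precursors. It was detected by 4 of its 8 probe sets. The probe set 1435382_at, whose name carries no sign of shared matches, read 25566.7, 13117.6 and 7771.7, with a mean of 15485.3 ± 9130.7 (SD, n = 3). The probe set 1455792_x_at read 36028, 20652.6 and 7384.1. Sample 1 was highest and sample 5 lowest in each of the 4, and sample 5 was 2.36-fold to 4.66-fold below the others. The 2.36-fold is that of 1435382_at. The remaining detected probe sets of Ndn have name endings that mark possible matches to several transcripts. Another probe set, 1415923_at, read 1587, 1458.8 and 665, with sample 5 below the limit and at least 1.82-fold lower. The other 3 probe sets stayed under the limit on every array.

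Of the Ndn neighbours in its imprinted cluster, Magel2 read 673, 674 and 624, Mkrn3 46.7, 29 and 15.8, and Snrpn 117, 101 and 91.8. None reached the limit, and Ndn was the only detected gene of the 6 measured there. In the MAGE family 1 of 6 listed genes was detected, beside 29.6% of all genes. This was Maged1, an adaptor in neurotrophin receptor signalling, at 3754.8, 4869.3 and 2194. Maged2 was not detected, with 2920.5, 2884.3 and 2200 on MOE430B.

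Mest, an enzyme of the alpha/beta hydrolase fold that is abundant in embryonic mesoderm, had 1 probe set, 1423294_at, at 4333.4, 1731.6 and 270. Samples 1 and 4 exceeded the limit. With sample 5 raised to the limit, that sample was at least 3.28-fold below the others and sample 1 at least 3.6-fold above them. Copg2, a coatomer subunit that overlaps Mest, was detected at 1463.9, 1837.1 and 1314, with sample 4 highest.

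Plagl1, a transcription factor that induces cell cycle arrest and apoptosis when overexpressed, was read by 3 probe sets. On MOE430A 1426208_x_at gave 6159.2, 898 and 857, above the limit in samples 1 and 5 and below it in sample 4. Sample 1 was at least 6.51-fold higher than the others. The second probe set on this design, 1450533_a_at, gave 35.1, 26.1 and 46.9, far under the limit. On MOE430B 1438588_at gave 2062.9, 1331.6 and 595, under the limit in each sample, again with sample 1 highest. Plagl1 therefore has a reading well over background in sample 1 alone, from a probe set whose ending marks possible matches to several transcripts.

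Of 8 genes reported elsewhere as Plagl1 targets 7 were measured and 3 detected, beside 29.6% of all genes. The cell cycle inhibitor Cdkn1a read 10623.6, 13367.6 and 14957.7, lowest in sample 1. The bHLH factor Tcf4 read 5885.3, 7073 and 4152.5. Socs3, an inhibitor of cytokine receptor signalling, read 10367.6, 3195.1 and 4746.3, highest in sample 1. The detected targets differed in which sample was highest. Slc2a4, the insulin-responsive glucose transporter, read 1215.5, 898 and 377, above the limit in sample 1 alone. Adcyap1r1, the receptor of the peptide PACAP, read 1466.5, 1025.9 and 6102.1 and was below the limit in at least 1 sample, and the fetal growth factor Igf2 read 119, 205 and 171.

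The regulatory windows of 4 members, Meg3, Ndn, Mest and Plagl1, are shown for their CG dinucleotides, the sites that imprinting methylates. Meg3 and Ndn had detected probe sets with a sample apart by over 2-fold. Mest and Plagl1 were not detected, and passed that fold only with low readings raised to the limit, through the samples where they are high. The windows are the 250 bases before an annotated start in RefSeq on GRCm38.p6, 5′ to 3′ on the gene's strand, with each CG in capitals. Meg3 has 2 such windows, of which the first is shown, and Mest has 3, of which the second is shown; those shown hold more CG than the Meg3 window left out, which has 0, and the first Mest window, which has 7, and neither of these holds the Zfp57 letters given below. Methylation was not measured here.
Meg3: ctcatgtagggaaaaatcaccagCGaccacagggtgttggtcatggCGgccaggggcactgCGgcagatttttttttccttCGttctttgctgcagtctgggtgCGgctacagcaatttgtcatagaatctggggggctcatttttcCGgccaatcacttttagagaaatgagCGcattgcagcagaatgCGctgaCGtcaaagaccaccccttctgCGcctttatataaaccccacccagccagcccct
Plagl1: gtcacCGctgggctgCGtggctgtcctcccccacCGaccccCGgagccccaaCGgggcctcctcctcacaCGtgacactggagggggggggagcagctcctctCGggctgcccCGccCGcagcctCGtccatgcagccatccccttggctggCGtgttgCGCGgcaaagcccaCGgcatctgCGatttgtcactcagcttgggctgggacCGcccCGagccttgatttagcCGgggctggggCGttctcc
Ndn: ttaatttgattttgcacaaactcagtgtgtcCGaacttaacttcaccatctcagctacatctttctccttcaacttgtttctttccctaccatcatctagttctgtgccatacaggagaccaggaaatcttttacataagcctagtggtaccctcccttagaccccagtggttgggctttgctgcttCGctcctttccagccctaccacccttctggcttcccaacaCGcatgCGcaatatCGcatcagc
Mest: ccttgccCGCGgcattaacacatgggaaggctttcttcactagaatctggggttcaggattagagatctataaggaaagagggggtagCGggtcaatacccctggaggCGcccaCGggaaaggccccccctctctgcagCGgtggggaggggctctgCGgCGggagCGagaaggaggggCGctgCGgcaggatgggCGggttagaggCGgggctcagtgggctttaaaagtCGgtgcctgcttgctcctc

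The Meg3 window, chr12:109540746-109540995 on the plus strand, holds 10 CG, more than 62.2% of the 32851 windows in the table, whose median is 6. The Plagl1 window, chr10:13090582-13090831, plus strand, holds 19, more than 80.3% of windows. The Mest window, chr6:30737800-30738049, plus strand, holds 14, more than 70.6%, and the Ndn window, chr7:62348027-62348276, plus strand, holds 5, more than 44.4%, and overlaps the annotated gene Gm32061. The windows of these 4 genes thus lie on both sides of that median. The letters TGCCGC, bound by the imprint-keeping factor Zfp57 when methylated, were searched on both strands and occur in the Meg3, Plagl1 and Mest windows shown but not in that of Ndn. They occur in 4 of the 12 member windows and in 8.7% of all windows, and the 4 include a further Mest window that overlaps the one shown almost fully. The letters GGGGCCCC, a Plagl1 site, occur on either strand in 1 of the 12, that of Peg3, and in 0.89% of all. A match is only a match of letters. Windows were found for 8 members and none for Cdkn1c and Sgce.

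Grb10, an adaptor protein that binds activated insulin and IGF1 receptors and dampens their signal, was the steadiest of the bright members. Its probe set 1425458_a_at read 26636.2, 29894.7 and 17207.1, a mean of 24579.3 ± 6589.1 (SD, n = 3), with the highest sample 1.74-fold above the lowest. Sample 4 was highest and sample 5 lowest. The 2 other probe sets, 1425457_a_at and 1430164_a_at, did not exceed 587 and 449 and stayed below the limit. Its neighbour Ddc, the aromatic amino acid decarboxylase, read 383, 262 and 252, also below the limit.

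Of 15 listed genes of insulin and IGF receptor signalling, the pathway on which Grb10 acts, 11 were detected, beside 29.6% of all genes. The receptor Igf1r read 15522.3, 14087.7 and 13052.8 on MOE430B, and the receptor Insr 5811.1, 9693.7 and 11053.1, lowest in sample 1. The docking protein Irs1 read 6709.9, 4505.9 and 2321.8, with sample 5 at 2.37-fold below the others. Igf2r, itself imprinted and the receptor that clears Igf2, read 3234, 4508.5 and 3835.1. Of genes not detected, Irs2 read 259, 302 and 495, and Grb7, a relative of Grb10, read 710, 538 and 646.

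Sgce encodes epsilon-sarcoglycan, a membrane protein of the dystrophin-associated complex. On MOE430A its probe set 1420688_a_at read 2064.5, 3416.4 and 1888.9, a mean of 2456.6 ± 836 (SD, n = 3), highest in sample 4. Its probe set on MOE430B read 258, 465 and 1011.8, below the limit there. Peg10, the retrotransposon-derived gene beside Sgce, read 12.9, 150 and 47.9. Of 10 measured genes of the sarcoglycan and dystroglycan complex 2 were detected, beside 29.6% of all genes. These were Dag1 at 7794.6, 6360.1 and 4239.3 and the dystrophin relative Utrn at 2183.6, 2534.1 and 1339.6. Sgcb, beta-sarcoglycan, read 5427.6, 3437.5 and 1956.2 on MOE430B, below the limit in sample 5, and Sgcd, delta-sarcoglycan, 507, 569 and 271.

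Cdkn1c, the inhibitor p57 of cyclin-dependent kinases, read 59.4, 48.1 and 31.9 by its only probe set. Of 6 other inhibitors listed, from the Cip/Kip and Ink4 families, 4 were detected, beside 29.6% of all genes. Cdkn1b read 3306.1, 1923.8 and 1459.6, Cdkn2b 5533.7, 4706.4 and 4232.2, and Cdkn2c 5845.9, 9635.9 and 4751.3, while Cdkn2a was below the limit at 260, 225 and 171. In the imprinted cluster of Cdkn1c 1 of 8 measured genes was detected, Tssc4, and Phlda2, which limits placental growth, read 116, 46.9 and 60.4.

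Peg3, a large zinc finger protein, had 5 probe sets, none above the limit on any array. The highest Peg3 reading on MOE430A was 807, by 1417355_at in sample 4, where samples 1 and 5 each read 292. On MOE430B the highest was 902, in sample 1 by 1447731_at. Its reported partners Siah1a, a ubiquitin ligase, and Traf2, a TNF receptor adaptor, were detected, at 4451, 2691.2 and 2993.8 and at 1133.5, 1272.4 and 1226.4. For the Dlk1 axis, Adam17, a protease that sheds Dlk1, was detected at 1364.2, 2316.2 and 2269.2. The Dlk1 relative Dlk2 read 950, 496 and 1222.8, and Notch1 read 1190.5, 1229.5 and 529, each below the limit in at least 1 sample. The Peg3 partners and the Dlk1 axis together had 3 of 7 genes detected, beside 29.6% of all genes.

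Nnat, a small proteolipid of the endoplasmic reticulum, read 208, 203 and 21.3 by its only probe set, all under the limit. Blcap, in whose intron Nnat lies, was detected at 1733.3, 2247.4 and 2645.7. Neither the Peg3 nor the Plagl1 cluster held a detected gene, while 1 gene was detected in each of the others drawn.

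**Figure D3:**
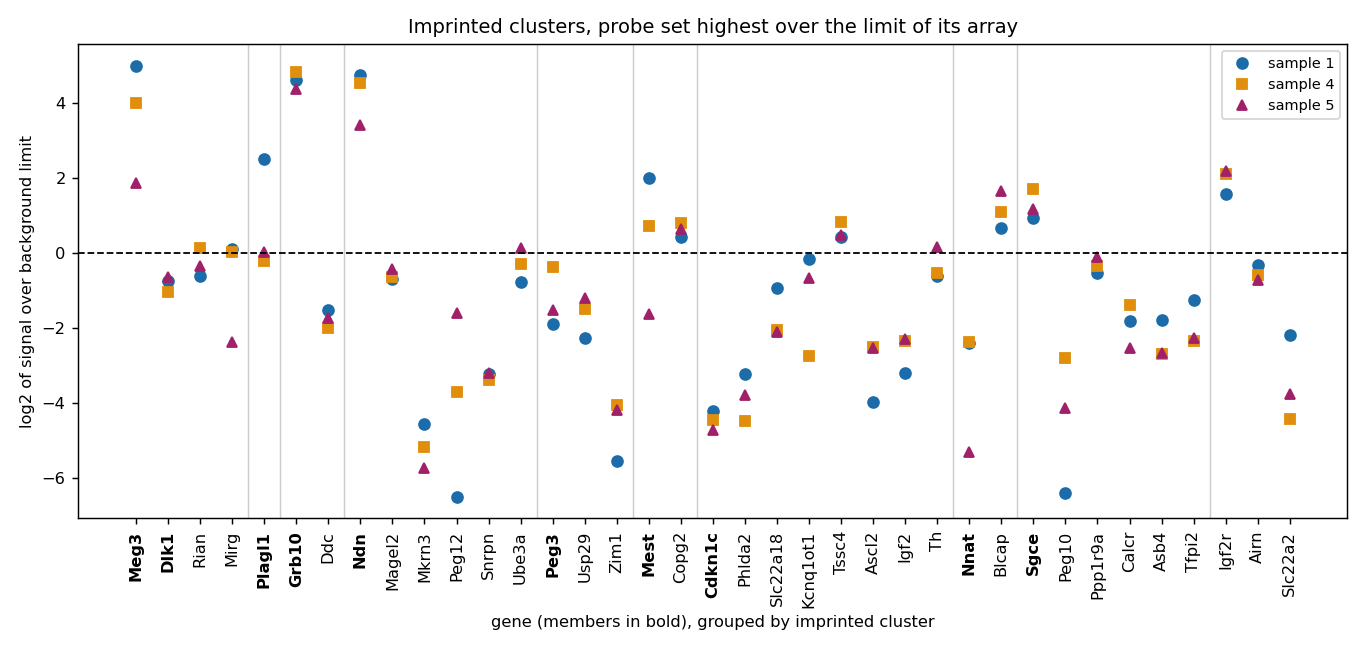
For each measured gene of the imprinted clusters drawn, the log2 of signal over the background limit of its array in samples 1, 4 and 5, by the probe set highest over the limit; 0 is the limit. Meg3, Ndn and Grb10 stand far above the limit in most samples while most genes beside them lie under it.

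Beyond the members, 46 imprinted genes were listed, 37 measured and 9 detected, against the 29.6% of all genes given above. These were Igf2r, Impact, Gnas, Copg2, Dcn, Blcap, Mcts2, Commd1 and Tssc4. Gnas, the stimulatory G protein alpha subunit, read 12287.6, 18132.6 and 13149.9. Impact, a regulator of translation under amino acid starvation, read 2354.1, 1604.4 and 2515.9. The antisense RNA Airn, which silences Igf2r on the paternal copy, read 874, 705 and 509 by the probe set highest over the limit, and Kcnq1ot1, which acts likewise at the Cdkn1c cluster, 3311.9, 462 and 1669.6 on MOE430B. Neither was above the limit on any array. The count of 9 fell to 3, Blcap, Gnas and Igf2r, when the limit was raised to the 99th percentile.

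Of 10 genes that maintain imprints 4 were detected, beside 29.6% of all genes. Trim28, the corepressor through which Zfp57 acts, read 57928.5, 64224.2 and 72841.1 on MOE430B. The maintenance methyltransferase Dnmt1 read 2709.6, 3695.1 and 5840.4, Ctcf, an insulator protein, 3856.4, 4156.2 and 4001.7, and Smchd1 4935.8, 6088.6 and 8148.4 on MOE430B. Trim28, Dnmt1 and Smchd1 were lowest in sample 1 and highest in sample 5, the reverse of the detected Ndn and the steep Meg3 probe sets. Their highest reading exceeded the lowest by 1.26-fold, 2.16-fold and 1.65-fold. The name endings of the Trim28 and Dnmt1 probe sets mark possible matches to several transcripts. A link to Meg3 or Ndn was not tested. Zfp57 read 86.2, 65.9 and 43.9 and was not detected, and Uhrf1, the cofactor that brings Dnmt1 to replicated DNA, read 371, 2039.4 and 3120, below the limit in sample 1.

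**Figure D4:**
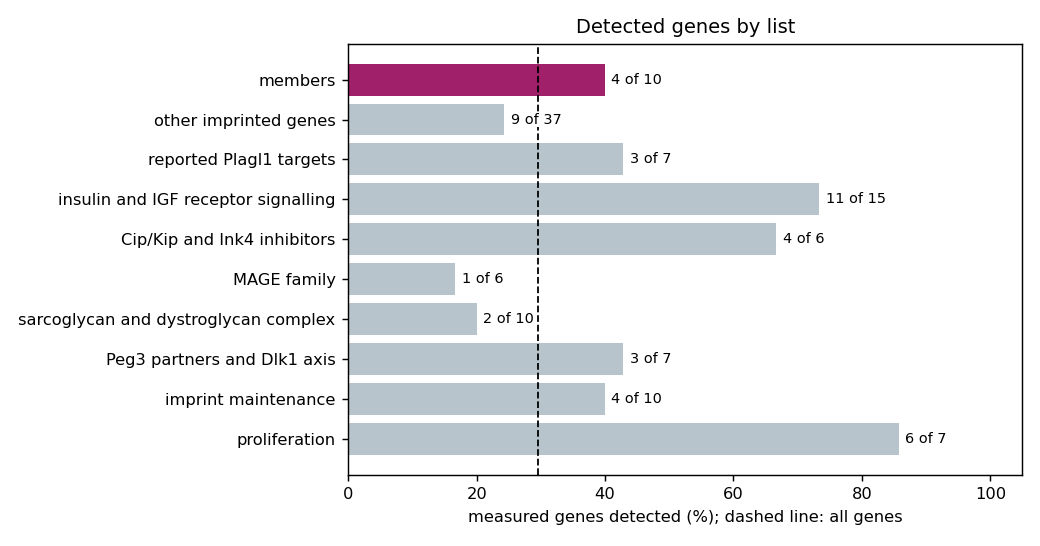
Share of measured genes that were detected, in percent, for the members and 9 related gene lists, with the count beside each bar; the dashed line is the share of all measured genes. The members reach 4 of 10, other imprinted genes 9 of 37, and insulin and IGF receptor signalling 11 of 15.

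On MOE430A the detected members were lowest in sample 5, by over 2-fold for Meg3 and Ndn only. For Grb10 sample 5 was 1.64-fold below the others, and for Sgce 1.41-fold. All 7 detected member probe sets were lowest in sample 5, against 42% of all detected probe sets naming 1 gene. Of the 7, 5 were highest in sample 1, those of Meg3 and Ndn. The share of all detected probe sets highest in sample 1 was not computed, so this count has no background. The 7 come from only 4 genes, and the 4 probe sets of Ndn are assigned to the same gene, so they are not separate observations. The probe sets that were not detected are left out of this count, since the order of readings under the limit says nothing. On MOE430B only 2 member probe sets were detected, both of Meg3, of which 1452905_at was lowest in sample 5 and 1429256_at in sample 4.

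By size, 5 of the 7 detected member probe sets on MOE430A had a sample apart from the mean of the other two by over 2-fold, against 18.5% of all detected probe sets. Of these, 1 belonged to Meg3 and 4 to Ndn, so they stand for 2 genes. The same 5 were lower in sample 5 by over 2-fold, against 6.69% of all, and higher in sample 1 by over 2-fold, against 5.17%. These counts describe the same order of samples and are not separate results. The members were chosen with earlier results of these data known, so the shares beside them are no test. Without the probe sets with shared endings, 1 probe set, Ndn 1435382_at, was lower in sample 5 by over 2-fold, at a log2 deviation of -1.24, which was -0.76 and no longer past 2-fold without sample 1. Leaving out sample 5 left 2 probe sets past 2-fold, of Meg3 and Mest.

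Requiring detection in all samples leaves out Mest, Plagl1 and the Meg3 probe set 1452183_a_at, whose bounds are given above. On MOE430B 1 of 2 detected member probe sets was past 2-fold, against 14.9% of all, and lower in sample 5 by that much, against 4.27%. The probe set counted on MOE430B is the Meg3 probe set 1452905_at, and without sample 5 no member probe set was past 2-fold there.

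Sample 5 had a median log2 deviation of -1.58 across the 7 detected member probe sets on MOE430A, beside -0.07 over all 5530 detected. In sample 1 it was 1.34 beside 0.03, and in sample 4 0.56 beside 0.03. Of these 7, 4 are of Ndn, so the medians are mostly those of that gene. Grb10 and Sgce were highest in sample 4 and do not have the order of Meg3 and Ndn. On MOE430B the medians over 2 probe sets were 1.18, 0.55 and -1.74.

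**Figure D5:**
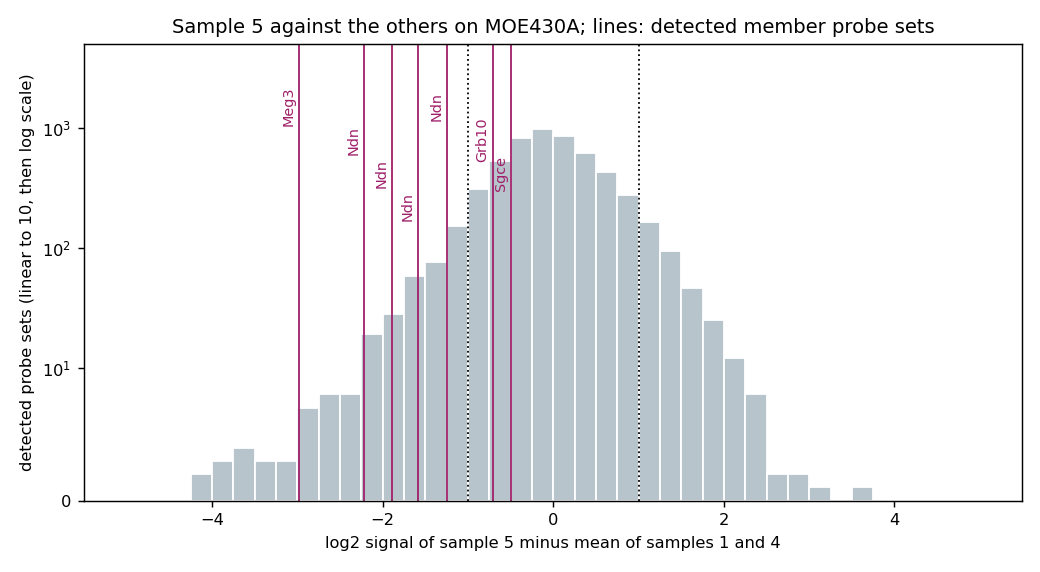
Number of detected MOE430A probe sets (log axis) by how far sample 5 lay from the mean log2 signal of samples 1 and 4, with vertical lines at the 7 detected member probe sets. Meg3, at -2.98, and the 4 of Ndn lie beyond -1, while Grb10, at -0.71, and Sgce, at -0.49, lie within it.

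Other measures also differed between the samples, and their part in the members' pattern was not tested. The 3' to 5' ratio of Gapdh rises where the RNA, or the copy made from it, is shorter. It was highest in sample 1 and lowest in sample 5 on MOE430B too, at 23.4, 14.0 and 11.5. That of Actb was 17.5, 9.57 and 8.68 on MOE430A and 20.2, 8.23 and 10.8 on MOE430B. Of the 9 detected fibroblast markers, each by its brightest detected probe set, 6 were over 2-fold lower in sample 5 than in the others. This stood beside 6.69% of all detected probe sets on MOE430A and 4.27% on MOE430B. The 6 were Col1a1, Col1a2, Col3a1, Prrx1, Pdgfrb and Snai2. The collagen Col3a1, with the widest gap of these, read 58322.2, 24663.3 and 6975.8, while Vim, an intermediate filament protein, read 36684.3, 99725 and 76353.8. Fabp4, a lipid carrier of fat cells, gave 266, 250 and 2991 and exceeded the limit only in sample 5. Of 7 proliferation genes 6 were detected, beside 29.6% of all genes. All 6 were lowest in sample 1, with 3 highest in sample 4 and 3 in sample 5. The share of all detected probe sets lowest in sample 1 was not computed. The mitotic kinase Cdk1 read 1809.2, 10432.8 and 4459, and the replication clamp Pcna read 3033.3, 9243.7 and 16979.4. The fluidics station cannot be told apart from sample 5 on MOE430A, while on MOE430B, with all arrays on station 1, the detected Meg3 probe sets were 10.1-fold and 1.09-fold lower in sample 5. What part the station had was not tested. In bulk RNA, fewer cells expressing a gene and less RNA per cell cannot be told apart.

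The detected genes closest to Meg3 by the Euclidean distance of centred log2 signals over the 3 arrays of MOE430A were Mapre2, a microtubule end-binding protein, at 0.07, Mxd4, a repressor of the MYC network, at 0.16, and Postn, a matrix protein, at 0.26. Mapre2 read 14493.7, 7141.6 and 1368.9. Only 9 of the 4189 other detected genes lay within 0.5 of Meg3, read here by 1439380_x_at, a probe set with a shared ending. On MOE430B none of 1534 genes lay within 0.5, and the nearest were Adamts5, a matrix protease, at 0.58, Gulp1 at 0.94 and Pik3ip1 at 1.08.

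Plagl1 on MOE430A likewise had no gene of 4190 within 0.5, with Selenop, a selenium carrier, and Rev3l, a DNA polymerase subunit, each at 0.56, and Mmp2, a matrix protease, at 0.71. Its readings in samples 4 and 5 lie near the limit, so these distances rest on sample 1. Its MOE430B probe set is under the limit, so no distances are given for it. Grb10 was close to many genes: 1281 of 4189 lay within 0.5, led by Tmem132a at 0.01, Iqsec1 at 0.01 and Rcbtb2 at 0.02. The number of genes within 0.5 depends on how far a gene's samples lie apart. On MOE430A this was 1.74-fold for Grb10 and 11.4-fold for Meg3, so these numbers do not compare how widely a pattern is shared. With 3 arrays behind each distance, nearness describes these samples only.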

How the data were processed

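Total RNA of 10T1/2 cells from 3 samples (RNeasy; 5 µL of 100 ng/µL each) was labelled with biotin, per the labels. The authors deposited a linear signal intensity per probe set and array, which the submitters' processing notes credit to MAS5, with no version or setting given in the sources used here. Each array had been scaled on its own, with trimmed mean intensities of 1501 on MOE430A and 1500 on MOE430B after removing 2% at each end, so the designs were kept apart. The deposited tables carry no detection calls. Other deposited entries, the run settings per the file headers, served to check the design and fluidics station. 0 columns of per-sample values were unused.

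Of 22690 MOE430A probe sets 20393 named 1 gene, and of 22575 on MOE430B 14674 did, with symbols updated to RefSeq of GRCm38.p6. The limit came from a background list of 162 genes, with 212 probe sets on MOE430A and 29 on MOE430B, 8 of which were themselves detected. This list was written after a first look at the signals, in place of the planned one, which was not used here. Names ending in _s_at or _x_at were taken as able to match several transcripts. A deviation is the log2 signal, floored at 1, of a sample minus the mean log2 of the other two. A fold against a reading below the limit was computed with that reading raised to the limit and is written "at least".

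The members and lists were chosen with earlier results of these data known. Named genes are all members, the first detected genes of each list as written (at most 4), 1 or 2 not detected, the neighbours in imprinted clusters, and the 3 nearest patterns for Meg3, Plagl1 and Grb10; cluster neighbours, other imprinted genes, Slc2a4, Col3a1, Vim, Fabp4, Cdk1 and Pcna were chosen with their values seen. Alternatives were other limits, lists, detection rules and filters, and each sample left out. Scripts ran in Python 3.11.15 with pandas 2.3.3, numpy 2.4.6 and matplotlib 3.10.9, after a test on simulated signals.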

Additional observations from a re-analysis of the deposited data

How the results depend on the processing

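The number of members detected on MOE430A, 4, lay between 3 and 6 when the limit was the 90th or 99th percentile, when 2 of 3 arrays sufficed, without probe sets of shared endings, and with another background list; it was 1 where a majority of probe sets was required, and 4 to 5 with a sample left out. Without probe sets of shared endings the 3 left were Grb10, Ndn and Sgce, so Meg3 was lost there. On MOE430B the count of 1 became 0 at the 99th percentile and 0 where a majority was required, and was 1 to 1 with a sample left out. Other imprinted genes went from 9 to 3 at the 99th percentile and were 10 to 10 with a sample left out. Member probe sets past 2-fold on MOE430A rose from 5 to 8 with no filter and low signals raised to the limit, and to 8 when kept by mean signal; both let in probe sets through the sample where they are high, so the added 3 had to differ. They ranged from 2 to 6 with a sample left out, and on MOE430B from 0 to 1. Those lower in sample 5 by over 2-fold on MOE430A went from 5 to 1 without probe sets of shared endings and to 8 when kept by mean. Keeping by mean, and the last removal of shared endings, were added once the data had been seen. With sample 1 or 4 left out, 17 of 18 deviations of sample 5 over the 9 detected probe sets were below 0; the exception, Meg3 1429256_at, was 0.04 without sample 1 and -0.29 without sample 4. Leaving out sample 5 gives no such deviation, and the earlier background list was not run. No paired analysis was possible because the 2 array designs hold the same samples and are not compared as groups. The 6 arrays, and the high limit of MOE430B, restrict what can be detected.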
